A study of Mus musculus with 4 samples.

Results

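The corticosteroid receptors and the genes that respond to them were followed in single-nucleus RNA sequencing (snRNAseq) of the hypothalamic arcuate nucleus (ARC) of mice after treatment with deoxycorticosterone acetate (DOCA)-salt. The members were taken by name: the receptor genes *Nr3c1* and *Nr3c2*, the target genes *Sgk1*, *Fkbp5*, *Tsc22d3* and *Per1*, and the enzyme genes *Hsd11b1* and *Hsd11b2*. All 8 names were found, each as 1 row among the 31053 genes of the count tables. The mice were wildtype C57BL/6J males, 10 weeks of age at collection. DOCA-salt mice carried a subcutaneous DOCA pellet for 3 weeks and could drink saline beside water, and Sham mice had sham surgery and water alone, so the pellet and the salt drink cannot be told apart. Each treatment had 2 libraries, and each library held the pooled nuclei of 2 mice from bilateral ARC punches. In the GRCm38 annotation *Nr3c1* lies on chromosome 18 (39410545 to 39519421, minus strand), *Nr3c2* on chromosome 8 (76899442 to 77245012, plus strand) and *Sgk1* on chromosome 10 (21882184 to 21999903, plus strand). *Fkbp5* lies on chromosome 17 (28399094 to 28517527, minus strand), *Tsc22d3* on chromosome X (140539528 to 140600659, minus strand) and *Per1* on chromosome 11 (69095217 to 69109960, plus strand). *Hsd11b1* lies on chromosome 1 (193221634 to 193264075, minus strand) and *Hsd11b2* on chromosome 8 (105518755 to 105523988, plus strand).

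DOCA is an ester of deoxycorticosterone, a steroid of the adrenal cortex, and acts as an agonist of the mineralocorticoid receptor, which *Nr3c2* encodes. That receptor also binds glucocorticoids, and the enzyme encoded by *Hsd11b2* shields it from them in aldosterone-sensitive cells by oxidizing the active glucocorticoid to an inert form, while the enzyme encoded by *Hsd11b1* regenerates the active form. The glucocorticoid receptor, encoded by *Nr3c1*, and the mineralocorticoid receptor recognize the same inverted repeat in DNA, and many of their target genes are shared.

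A promoter window of *Sgk1* is shown because it holds the full inverted repeat. *Sgk1* encodes a kinase that both receptors are known to induce and that raises sodium transport in epithelia. The repeat was searched as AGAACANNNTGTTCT, a sequence that reads the same on both strands, in windows running from 250 bases before to 50 bases after each annotated start (RefSeq, GRCm38.p6). The window at chr10:21993640-21993939, plus strand, has the repeat in capitals, between 189 and 175 bases before that start.

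Sgk1 promoter window: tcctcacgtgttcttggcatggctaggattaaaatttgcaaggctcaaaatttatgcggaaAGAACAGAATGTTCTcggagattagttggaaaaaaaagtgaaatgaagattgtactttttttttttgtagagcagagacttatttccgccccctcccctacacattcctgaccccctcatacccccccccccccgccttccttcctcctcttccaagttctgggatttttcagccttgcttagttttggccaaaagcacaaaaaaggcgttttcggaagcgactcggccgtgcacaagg

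The full repeat occurred in 3 of 32851 windows of all genes (0.00913%). A single arm, AGAACA on either strand, occurred in 18.97% of all windows and in 4 of the 14 windows used, which came from 6 of the members, while no window of *Nr3c1* or *Hsd11b2* was used. These 4 windows were 3 of the 6 *Sgk1* windows and 1 of the 3 *Tsc22d3* windows. A match is a run of letters and not a binding site, and these letters in a window of this length say nothing of sites elsewhere in the gene.

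The files held 10765 (DOCA-salt 1), 19754 (DOCA-salt 2), 2805 (Sham 1) and 8325 (Sham 2) barcodes, of which 39176 nuclei in all were kept. Median unique molecular identifiers (UMIs, each standing for a captured transcript) per kept nucleus were 2401, 2534, 8215 and 3278 in this order, so Sham 1 was the deepest library and had the fewest nuclei. Any pair of libraries shared between 1 and 44 barcodes, at most 0.567% of a library. The libraries differed in neuronal make-up, also within a treatment. Neurons gated on *Agrp*, the transcript of a hunger neuropeptide, numbered 249 in the first DOCA-salt library but 2 in the second, and 26 and 86 in the Sham libraries. Neurons gated on *Pmch*, the melanin-concentrating hormone transcript of the lateral hypothalamus, numbered 386 in DOCA-salt 2 and 5 to 8 in each of the other libraries. Gating on *Ppp1r1b* gave 57 neurons in DOCA-salt 1 and 0 in each of the other libraries. The study also reported clusters that held almost only DOCA-salt nuclei.

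Nuclei were put into 8 separate classes with marker lists that contain none of the members: 2054 astrocytes, 2472 oligodendrocytes, 725 oligodendrocyte precursors (OPCs), 591 microglia, 357 endothelial and 142 mural nuclei, 7331 GABAergic and 2886 glutamatergic neurons. These classes leave out much of the data. Of 22833 neurons, 12616 were in neither neuronal class and entered only the values of all neurons and of all nuclei. The level of a class's own marker list was 6.32 to 196 times that of the neurons of the same library, and the median nucleus of a class held 4 to 9 of the list's markers. The gate set lower limits on both, so these values describe the classes and do not check them. Foreign transcripts were common in every class. The summed level of the 10 neuronal markers in glial and vascular classes was 61.9% to 82.7% of that in neurons, against a gate limit set at the neuronal level. Low member values in a class are given beside such marker levels below, and RNA free in the suspension was not removed. Nuclei enriched in a list were kept out of the neurons, so the gate itself lowers the marker levels in neurons. The part of neuronal RNA in the member levels of the glial and vascular classes was not tested. Levels are counts of a gene scaled to all UMIs of the class in that library (CPM), and they are compared for the same gene between classes or libraries.

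*Nr3c1*, the glucocorticoid receptor gene, was found in all 8 classes at a similar level, with a mean of 95.1 CPM ± 22.9 (SD, n = 4 libraries) in GABAergic neurons at the low end and 132 CPM ± 31.7 in endothelial nuclei at the high end. Neighbours in the order of class means overlapped throughout. With neuronal markers at 61.9% to 82.7% of the neuronal level in glial and vascular classes, their *Nr3c1* values can hold neuronal RNA. Astrocytes had 117, 87.0, 136 and 176 CPM, in the order DOCA-salt 1, DOCA-salt 2, Sham 1, Sham 2 that is kept for all values below. GABAergic neurons had 93.9, 64.9, 101 and 120.1 CPM. DOCA-salt 2 was lowest and Sham 2 highest in both. Against the mean of the other 7 classes, within libraries, *Nr3c1* was lower in GABAergic neurons (log2 fold change -0.37, SE 0.07, FDR 5.68e-05, where 16.9% of all genes were called lower) and was not called in any other class. A *Nr3c1* UMI was held by 16.9% to 48.4% of astrocytes and 20.5% to 56.1% of neurons, with the highest shares in the deepest library. After each nucleus was thinned to 1000 UMIs the shares were 8.92% to 15.7% and 7.17% to 11.4%, and this left out 171, 370, 1 and 19 astrocytes and 704, 1270, 7 and 414 neurons with fewer UMIs. FDR is the false discovery rate of the edgeR quasi-likelihood test over all genes tested, with 0.05 as the limit for a call.

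*Nr3c2*, the mineralocorticoid receptor gene, had fewer UMIs, between 447 and 809 per library. Astrocytes had 25.6, 16.1, 36.4 and 23.9 CPM, a mean of 25.5 CPM ± 8.37 (SD, n = 4), while GABAergic and glutamatergic neurons had means of 15.7 CPM ± 3.84 and 15.5 CPM ± 3.53. The astrocyte value was above the neuronal value of the same library in every library, with the level in all neurons at 53.5% to 70.0% of that in astrocytes. The contrast of astrocytes with the other classes was called (log2 fold change 0.61, SE 0.18, FDR 0.00914), beside 13.1% of all genes called higher there, and it was no longer called without DOCA-salt 2 (FDR 0.0578). The largest mean, 27.1 CPM in mural nuclei, rested on 18 UMIs in 142 nuclei and ran from 0 to 76.3 CPM. It did not differ from the other classes beyond its error (log2 fold change 0.38, SE 0.38, FDR 0.749). A *Nr3c2* UMI was held by 3.64% to 20.4% of astrocytes and 3.67% to 15.8% of neurons, and in thinned nuclei by 1.49% to 5.43% and 1.17% to 2.42%.

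**Figure D1:**
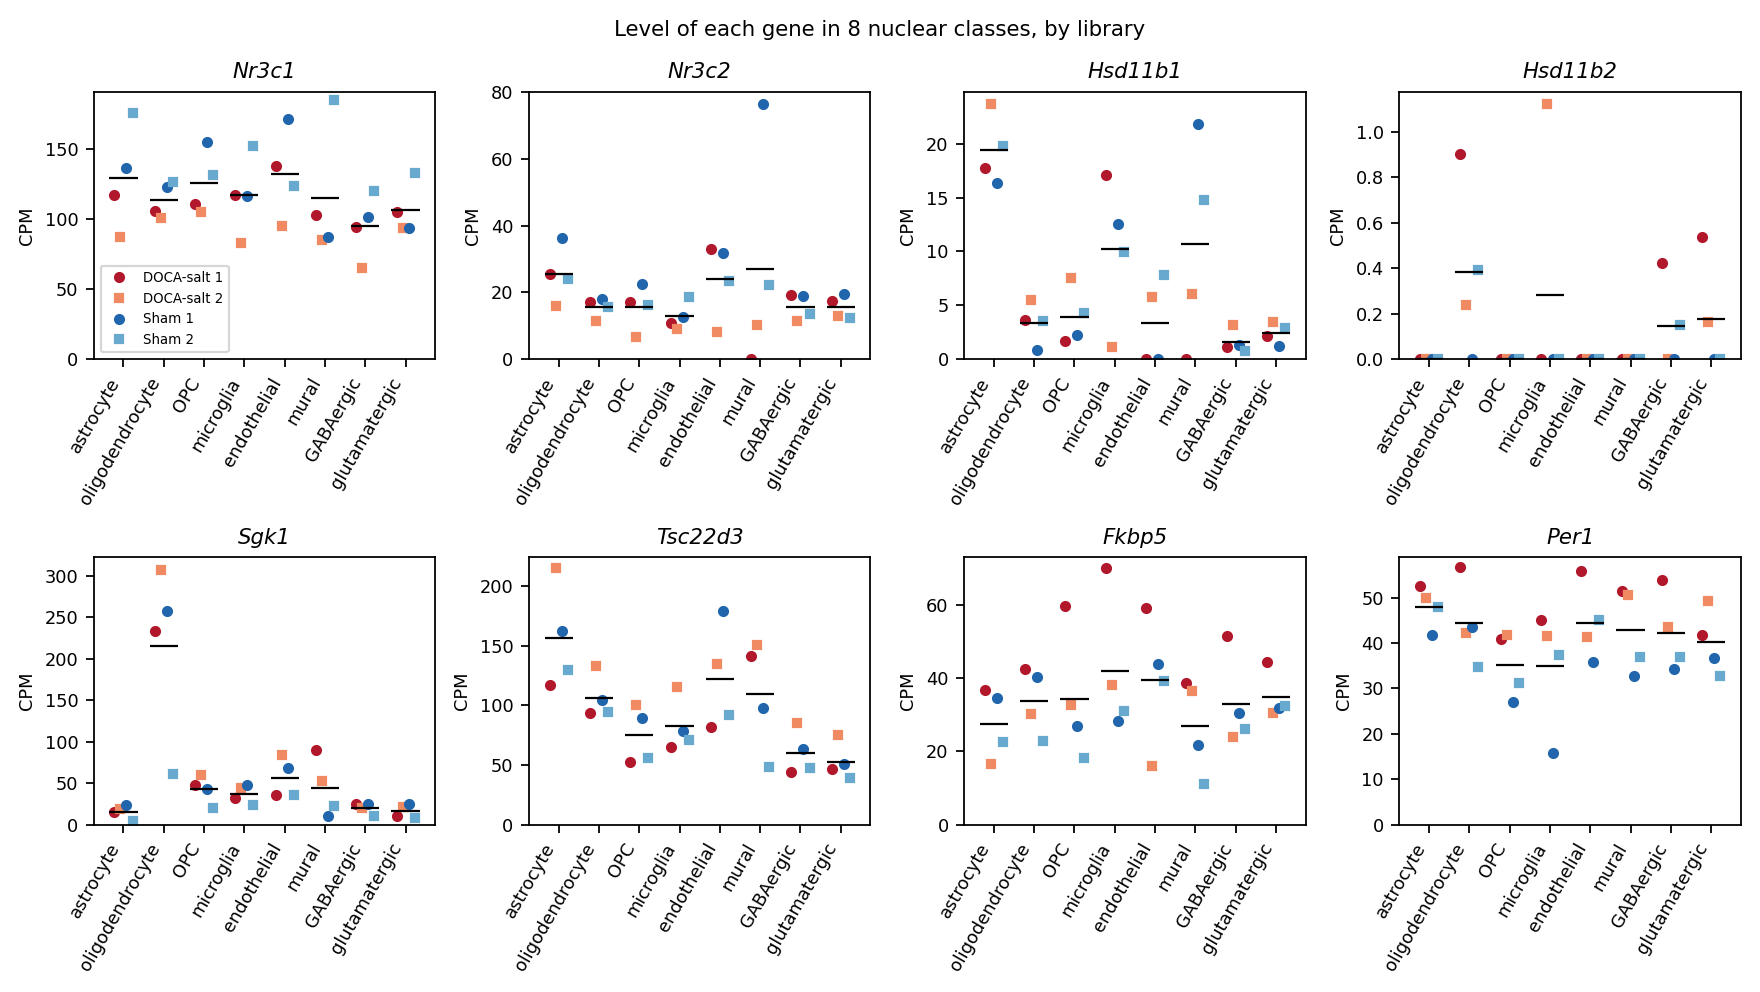
Level of each of the 8 genes in CPM (linear axes that start at 0 and differ between panels) in 8 nuclear classes. Points are the 4 libraries and black lines their means; *Sgk1* stands at 60.6 to 307 CPM in oligodendrocytes, *Hsd11b1* is highest on average in astrocytes, and *Hsd11b2* does not pass 1.12 CPM in any class.

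The 2 enzymes differed in where they were found. *Hsd11b1*, the regenerating enzyme gene, had 17.7, 23.7, 16.4 and 19.8 CPM in astrocytes, a mean of 19.4 CPM ± 3.17 (SD, n = 4). In GABAergic neurons it had 1.13, 3.21, 1.34 and 0.762 CPM, and in glutamatergic neurons between 1.19 and 3.44 CPM, so the neuronal and astrocyte ranges did not overlap. Astrocytes were above the other classes (log2 fold change 2.25, SE 0.28, FDR 8.64e-09), and GABAergic (log2 fold change -1.77, SE 0.32, FDR 1.64e-05) and glutamatergic neurons (log2 fold change -1.17, SE 0.34, FDR 0.00541, with 19.8% of all genes called lower) were below them. The glutamatergic call was lost under the stricter gate (FDR 0.0597). The level in neurons was 9.19% to 13.5% of that in astrocytes, and the summed level of the astrocyte markers in neurons was 9.99% to 15.8% of theirs. The *Hsd11b1* percentage was below the marker percentage in 3 of the 4 libraries and above it in DOCA-salt 2 (13.5% against 11.4%), and the part of free RNA in the neuronal value was not tested. These markers sorted the nuclei, so the gate lowers their percentage, which is no measure of free RNA for other genes. Microglia had 17.1, 1.12, 12.6 and 9.94 CPM from 24 UMIs in all and were not called (log2 fold change 0.91, SE 0.44, FDR 0.303). A *Hsd11b1* UMI was held by 4.53% to 9.68% of astrocytes and 0.556% to 2.01% of neurons, and in thinned nuclei by 1.09% to 3.38% and 0.0808% to 0.254%.

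*Hsd11b2*, the enzyme gene that marks aldosterone-selective cells, was near the limit of detection. All kept nuclei together held 6, 8, 3 and 3 UMIs of it, 20 in all among 39176 nuclei. No UMI was found in 2054 astrocytes, which allows a share of up to 0.146% of nuclei with a UMI, or in 357 endothelial nuclei (up to 0.840%). The 20 UMIs included 12 in neurons, 3 in oligodendrocytes and 1 in microglia. It did not pass the filter on low counts in any fit, so 7 of the 8 members were tested between treatments and between classes, and the limit covers counting error only.

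*Sgk1* was the member that differed most between classes. Oligodendrocytes had 234, 307, 258 and 60.6 CPM, a mean of 215 CPM ± 107 (SD, n = 4), and the next class, endothelial nuclei, had 36.1, 83.7, 67.7 and 35.2 CPM. The oligodendrocyte value was above those of the other 7 classes in each library, although Sham 2 oligodendrocytes were below DOCA-salt 2 endothelial nuclei. The oligodendrocyte contrast was called with a log2 fold change of 2.88 (SE 0.10, FDR 2.71e-26), beside 9.06% of all genes called higher in that class. The SEs of the class contrasts, with 42.8 degrees of freedom, come from 1 fit of the sums of all classes and libraries. They are not the spread of a class over the 4 libraries. Endothelial nuclei were also called higher (log2 fold change 0.78, SE 0.21, FDR 0.0134, where 5.97% of all genes were), and this call was lost without DOCA-salt 2 (FDR 0.291) and under the stricter gate (FDR 0.0566). *Sgk1* was called lower in astrocytes (log2 fold change -1.46, SE 0.21, FDR 2.04e-07, beside 10.5% of all genes), GABAergic neurons (log2 fold change -1.07, SE 0.13) and glutamatergic neurons (log2 fold change -1.48, SE 0.16). Oligodendrocytes are part of the mean that these classes were set against, so their high level lowers the other contrasts. The lower calls are thus not separate results.

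The share of oligodendrocytes with a *Sgk1* UMI was 51.5%, 56.9%, 75.6% and 15.7% before thinning, at median depths of 1557, 1542.5, 6567 and 2145.5 UMIs. Exact 95% binomial intervals were 45.7% to 57.3%, 54.3% to 59.5%, 67.3% to 82.7% and 13.0% to 18.8%. After thinning to 1000 UMIs, which left out 95, 468, 0 and 80 oligodendrocytes, the shares were 30.7%, 28.9%, 26.0% and 6.29%. Both DOCA-salt libraries and Sham 1 then lay within 5 percentage points of each other, and Sham 2 stood apart. The thinned shares in neurons were 1.56%, 2.02%, 3.47% and 1.19%, and in astrocytes 0.615% to 1.63%. Levels in neurons were 7.76%, 6.96%, 11.1% and 15.96% of those in oligodendrocytes, where the oligodendrocyte markers were at 2.83%, 5.93%, 8.51% and 4.98%. The marker percentages are again lowered by the gate.

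*Tsc22d3*, which encodes the glucocorticoid-induced leucine zipper protein, was highest in astrocytes on average. Astrocytes had 117, 215, 162 and 130 CPM, a mean of 156 CPM ± 43.7 (SD, n = 4), GABAergic neurons had 44.0, 85.3, 63.3 and 47.4 CPM, and glutamatergic neurons had 46.9, 74.7, 51.0 and 39.0 CPM. DOCA-salt 2 was highest in all 3 classes, and the astrocyte and neuronal ranges did not overlap. Astrocytes were called higher (log2 fold change 1.00, SE 0.08, FDR 4.84e-14), as were endothelial nuclei (log2 fold change 0.42, SE 0.12, FDR 0.0176) and oligodendrocytes (log2 fold change 0.37, SE 0.08, FDR 6.21e-04). GABAergic neurons (log2 fold change -0.67, SE 0.07) and glutamatergic neurons (log2 fold change -0.86, SE 0.08) were called lower, and so were OPCs (log2 fold change -0.35, SE 0.11, FDR 0.0301, beside 4.19% of all genes). The endothelial call was lost without Sham 1 (FDR 0.289), without Sham 2 (FDR 0.0656) and under the stricter gate (FDR 0.0621), the oligodendrocyte call without Sham 2 (FDR 0.0522), and the OPC call without DOCA-salt 1, DOCA-salt 2 or Sham 2 (FDR 0.0709, 0.181 and 0.0874). The neuronal level was 36.6% to 39.3% of the astrocyte level in every library, above the 9.99% to 15.8% of the astrocyte markers. Those markers sorted the nuclei, which lowers their percentage, and the part of free RNA in the neuronal *Tsc22d3* level was not tested. A *Tsc22d3* UMI was held by 24.6% to 55.9% of astrocytes and 14.4% to 39.4% of neurons, and in thinned nuclei by 12.6% to 21.1% and 4.13% to 7.06%.

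**Figure D2:**
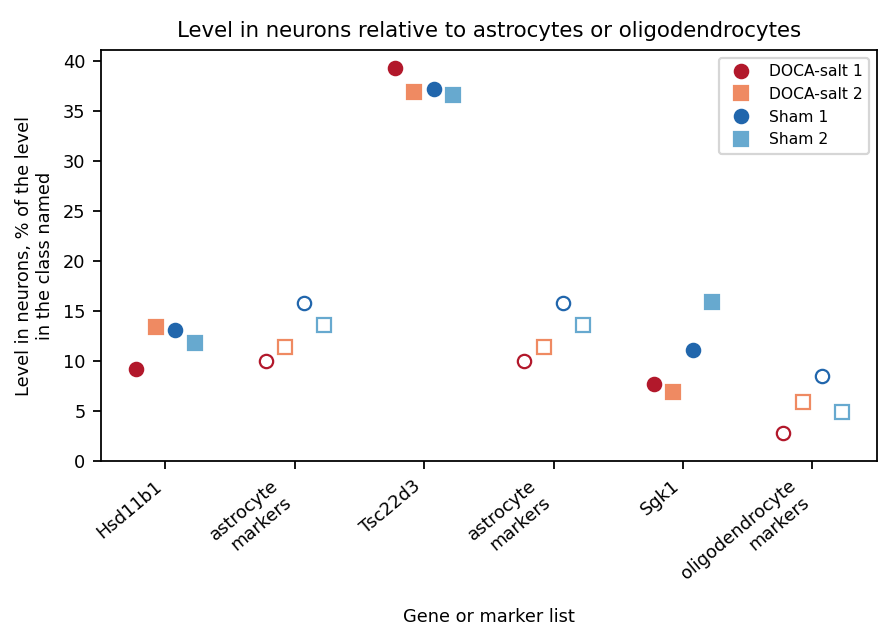
Level in all neurons as a percentage of the level in astrocytes (*Hsd11b1*, *Tsc22d3* and the astrocyte marker list) or in oligodendrocytes (*Sgk1* and the oligodendrocyte marker list). Filled symbols are members and open symbols marker lists, 1 point per library: *Hsd11b1* lies at 9.19% to 13.5%, among the astrocyte markers at 9.99% to 15.8%, while *Tsc22d3* lies at 36.6% to 39.3%. The marker lists sorted the nuclei, so the gate lowers the open symbols.

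*Fkbp5*, which encodes a co-chaperone that lowers the hormone affinity of the glucocorticoid receptor, was not called in any class. Means ran from 27.0 CPM ± 13.0 in mural nuclei to 41.9 CPM ± 19.2 in microglia, all with overlapping ranges. The largest differences were in microglia (log2 fold change 0.39, SE 0.18, FDR 0.275) and astrocytes (log2 fold change -0.39, SE 0.16, FDR 0.0763). *Per1*, a clock gene with a glucocorticoid response element, had means from 34.9 CPM ± 13.2 in microglia to 48.0 CPM ± 4.56 in astrocytes. It was called higher in astrocytes (log2 fold change 0.29, SE 0.11, FDR 0.0371), and this call was lost without any 1 of the 4 libraries (FDR 0.0503 to 0.182). Over all members, 17 of the 56 contrasts of a class with the rest were called, beside 18% of all gene-by-class contrasts. The contrasts of a gene set the same classes against each other and are not independent.

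**Figure D3:**
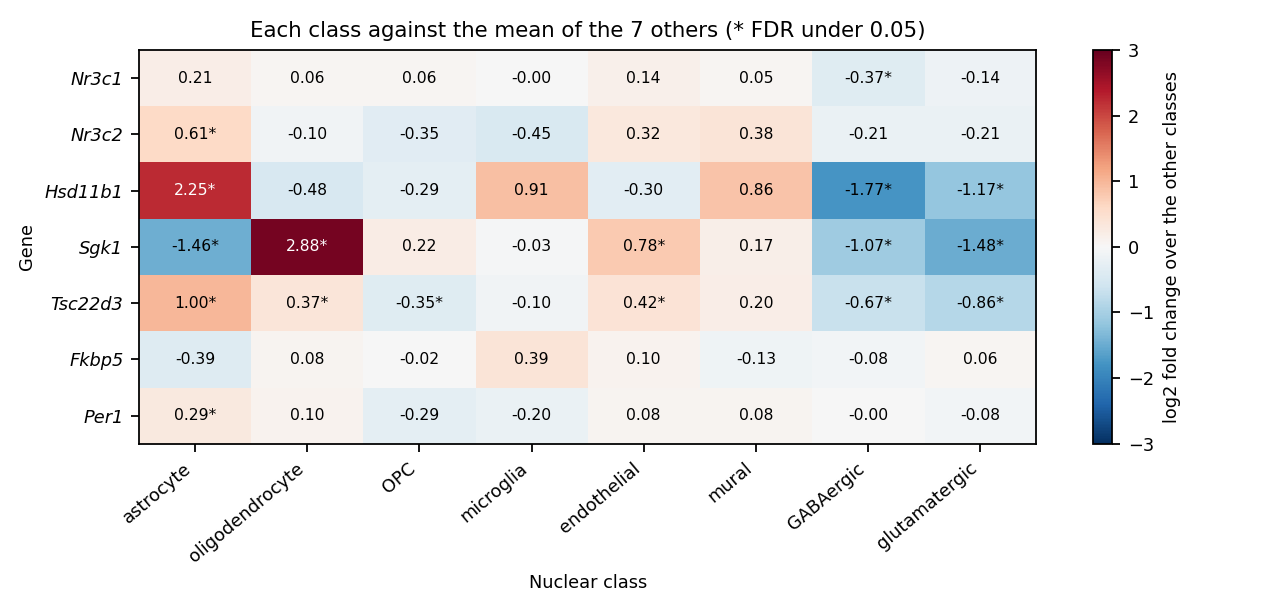
Log2 fold change of each class over the mean of the other 7 classes, fitted with edgeR with the library as a block, for the 7 members that passed the filter on low counts. Colour and printed values give the fold change and an asterisk an FDR under 0.05: *Sgk1* has the largest value, 2.88 in oligodendrocytes, and *Fkbp5* has no asterisk.

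Among neurons, *Nr3c1* varied with the transcript by which they were gated. *Agrp*-gated neurons had 188 CPM in DOCA-salt 1 and 173 and 188 CPM in the Sham libraries. DOCA-salt 2, with 2 such nuclei, was not used. All neurons of these libraries had 102, 107 and 129 CPM, below the 95% counting intervals of the *Agrp*-gated values in each (164 to 214, 128 to 228 and 155 to 225 CPM). *Ghrh*-gated neurons, which carry the transcript of growth hormone-releasing hormone, had 190, 129 and 161 CPM in DOCA-salt 1, DOCA-salt 2 and Sham 2, above all neurons in 3 of 3 libraries, and the interval cleared that level in 1 of them. *Sst*-gated neurons, with the somatostatin transcript, had 156, 81.8, 116 and 182 CPM, above all neurons in 4 of 4 libraries and clear of them in 2. *Tac2*-gated neurons, with the neurokinin B transcript, had 68.9, 92.8, 127 and 74.1 CPM, which took no single side. *Pmch*-gated neurons, used only in DOCA-salt 2, had 47.1 CPM (37.4 to 58.5) against 76.6 CPM in all neurons of that library. These subsets were not tested, the intervals cover counting error only, and gating on 3 or more UMIs of a transcript picks deeper nuclei. Each subset was gated on its own transcript alone, so subsets can share nuclei and are not separate observations. *Fkbp5* was also above all neurons in the *Agrp*-gated neurons of 3 of 3 libraries, at 45.8 to 89.6 CPM, with the interval clear in 2. This was not particular to *Agrp*. *Ghrh*-gated neurons were above in 3 of 3 libraries (53.5 to 85.6 CPM, clear in 2) and *Tac2*-gated neurons in 4 of 4 (clear in 1). *Pomc*- and *Sst*-gated neurons were above in 3 of 4 each, and *Pmch*-gated neurons were below at 22.7 CPM in DOCA-salt 2. *Nr3c2* was above all neurons in the *Agrp*-gated neurons of 2 of 3 libraries, on 38 UMIs, with the interval clear in 0. In *Ppp1r1b*-gated neurons, used only in DOCA-salt 1, it had 35.5 CPM (19.9 to 58.6), clear above all neurons there. In *Pomc*-gated neurons it was clear below them in 1 of 4 libraries.

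**Figure D4:**
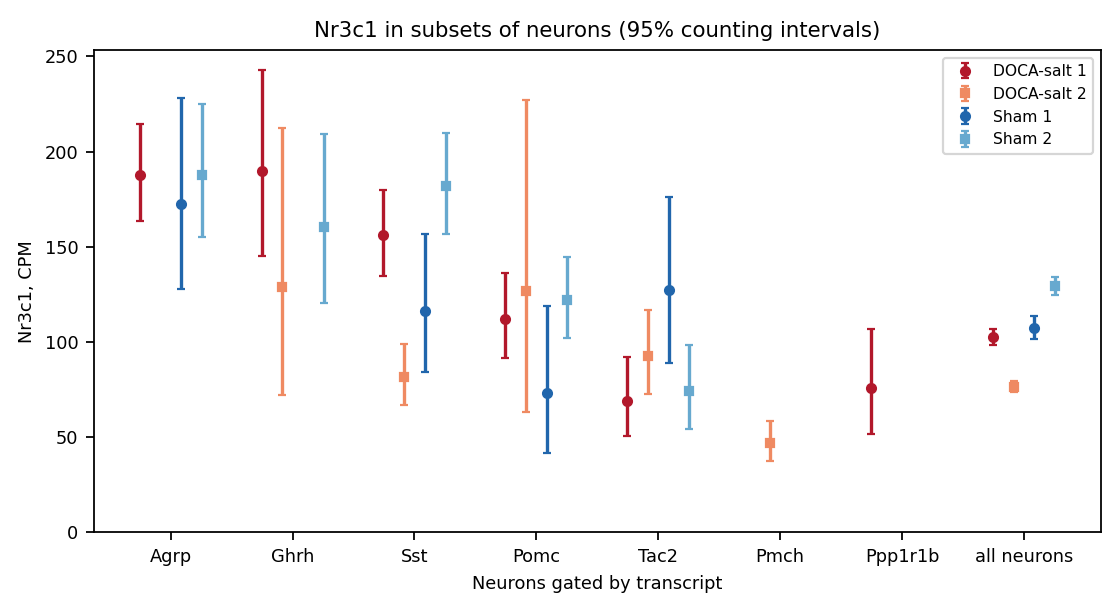
*Nr3c1* level (CPM, linear axis from 0) in neurons gated by a neuropeptide or other transcript, and in all neurons, by library. Bars are 95% Poisson counting intervals and only libraries with 10 or more nuclei in a subset are drawn: *Agrp*-gated neurons lie at 173 to 188 CPM and all neurons at 76.6 to 129 CPM.

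No member was called between DOCA-salt and Sham. Of 52 tests of a member within a class (the 8 classes and all neurons together), 0 passed an FDR of 0.05 and 5 had an unadjusted p under that value. Of 96826 gene-by-class tests 45 passed (0.0465%), and 7.90% had an unadjusted p under 0.05. In whole libraries 0 of 7 members passed, beside 0 of 16564 genes (0%). An unadjusted p under 0.05 was found there for 2 members, beside 8.45% of all genes. DESeq2 also called 0 members within classes, with an adjusted p for 28 of the 52 tests, and 0 in whole libraries, where 2 and 1 passed before adjustment. The intervals of the fold changes were wide. With 2 libraries per treatment, n = 2 stands on each side of every value below. The SEs and p-values rest on the spread between these pools, moderated by edgeR over all genes of a fit. That weight of other genes was largest in mural nuclei, with 538 degrees of freedom against 6.1 to 17.5 in the other treatment fits. The mural intervals thus rest little on the pools' own spread for a gene.

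*Nr3c1* had a fitted log2 fold change below 0 in 8 of 8 classes, from -0.75 to -0.24, none of them called. Whole libraries had 102, 80.6, 113 and 135 CPM, so both DOCA-salt libraries were below both Sham libraries (log2 fold change -0.49, SE 0.17, FDR 0.572, 95% interval -0.91 to -0.08). From a whole-library level alone, fewer nuclei of a class and less RNA per nucleus cannot be told apart. In astrocytes the log2 fold change was -0.70 (SE 0.24, FDR 0.561), and in all neurons it was -0.44 (SE 0.19, FDR 0.630). Both DOCA-salt libraries were below both Sham libraries in 4 of 8 classes, where 16.5% of all gene-by-class values and 16.3% of all genes in whole libraries did the same. The 8 classes of a library come from the same pool and share its free RNA, so they are not independent. *Nr3c2* had a fitted value below 0 in 6 of 6 classes tested, from -0.84 to -0.07, and in whole libraries had 17.95, 11.7, 21.0 and 16.4 CPM (log2 fold change -0.39, SE 0.25, FDR 0.687). DOCA-salt 2 had the lowest whole-library level of both receptors, and it is also the library with few *Agrp*-gated and many *Pmch*-gated neurons. The part of neuronal make-up in these values was not tested. In glutamatergic neurons *Nr3c2* had 17.4, 12.9, 19.6 and 12.2 CPM, with overlapping treatments.

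*Sgk1* had a fitted log2 fold change above 0 in 7 of 7 classes tested, from 0.04 to 0.88, none called, and the value in oligodendrocytes turned on Sham 2. The log2 fold change there was 0.73 (SE 0.47, FDR 0.613, 95% interval -0.28 to 1.74). It was -0.01 (FDR 0.998) without Sham 2, 2.09 (FDR 0.00116) without Sham 1 and 0.97 (FDR 9.94e-06) without DOCA-salt 1, although the Sham libraries left in that last fit, at 258 and 60.6 CPM, differed more than the treatments did. Sham 2 was the lowest library for *Sgk1* in 7 of 8 classes. Its oligodendrocytes had 19201 CPM of the oligodendrocyte list, by which they were gated, against 10393, 11495 and 15528 CPM in the other libraries. The cause of the low *Sgk1* values in Sham 2 was not tested. OPCs had 47.7, 59.3, 42.6 and 20.4 CPM (log2 fold change 0.88, SE 0.35, FDR 0.528), and the fold change was 0.28 without Sham 2 and 1.38 without Sham 1. Both DOCA-salt libraries were above both Sham libraries for *Sgk1* in 2 of 8 classes, OPCs and mural nuclei. Of all gene-by-class values that passed the filter, 23.4% did the same, and *Sgk1* in mural nuclei did not pass it. In whole libraries *Sgk1* had 29.5, 54.8, 51.4 and 16.1 CPM (log2 fold change 0.29, SE 0.56, FDR 0.895), and oligodendrocytes made up 2.88%, 7.45%, 5.95% and 8.20% of the nuclei. Sham 2 had the lowest whole-library level of *Sgk1* and the largest share of oligodendrocytes. The part of class shares in the whole-library levels was not tested.

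*Per1* had a fitted log2 fold change above 0 in 7 of 7 classes tested, from 0.12 to 0.50. The treatments did not overlap in 6 of 8 classes, among them mural nuclei, where *Per1* did not pass the filter on low counts. Of all gene-by-class values that passed the filter, 23.4% had both DOCA-salt libraries above both Sham libraries. All neurons had 50.6, 45.0, 35.0 and 35.4 CPM (log2 fold change 0.41, SE 0.14, FDR 0.626, 95% interval 0.06 to 0.76), and whole libraries had 50.9, 45.5, 35.9 and 36.4 CPM (log2 fold change 0.37, SE 0.14, FDR 0.576), where 26.6% of all genes had both DOCA-salt libraries above. Both DOCA-salt values were thus above both Sham values by less than 1.5 times, and the difference was not called. *Ppp1r1b*-gated neurons, found only in DOCA-salt 1, had 82.8 CPM of *Per1* (57.7 to 115). The part of neuronal make-up in the *Per1* values was not tested. The share of neurons with a *Per1* UMI was 15.7%, 12.9%, 25.4% and 14.2%, with the deepest library highest, and 4.95%, 4.78%, 3.55% and 3.12% after thinning.

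*Fkbp5* had a fitted log2 fold change above 0 in 5 of 7 classes tested, and DOCA-salt 1 stood above the other libraries. Whole libraries had 50.6, 26.7, 31.1 and 28.8 CPM, with DOCA-salt 1 highest in 8 of 8 classes and DOCA-salt 2 below both Sham libraries over all nuclei (log2 fold change 0.31, SE 0.28, FDR 0.754). OPCs had the largest fold change (59.6, 32.6, 26.9 and 18.3 CPM, log2 fold change 0.98, SE 0.38, FDR 0.520), which was 0.58 without DOCA-salt 1 and 0.63 without Sham 2. *Tsc22d3* showed the reverse pattern, with DOCA-salt 2 highest in 7 of 8 classes and whole-library levels of 58.8, 103, 83.3 and 64.9 CPM (log2 fold change 0.10, SE 0.31, FDR 0.939). The largest of its values was in mural nuclei, at 141, 150.0, 98.1 and 48.0 CPM (log2 fold change 1.22, SE 0.42, FDR 0.231), on 107 UMIs in 142 nuclei. It was 0.57 without Sham 2 and 1.58 without Sham 1. *Hsd11b1* in astrocytes did not separate the treatments (log2 fold change 0.13, SE 0.35, FDR 0.960, 95% interval -0.62 to 0.87), which leaves changes of up to that interval undetected.

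**Figure D5:**
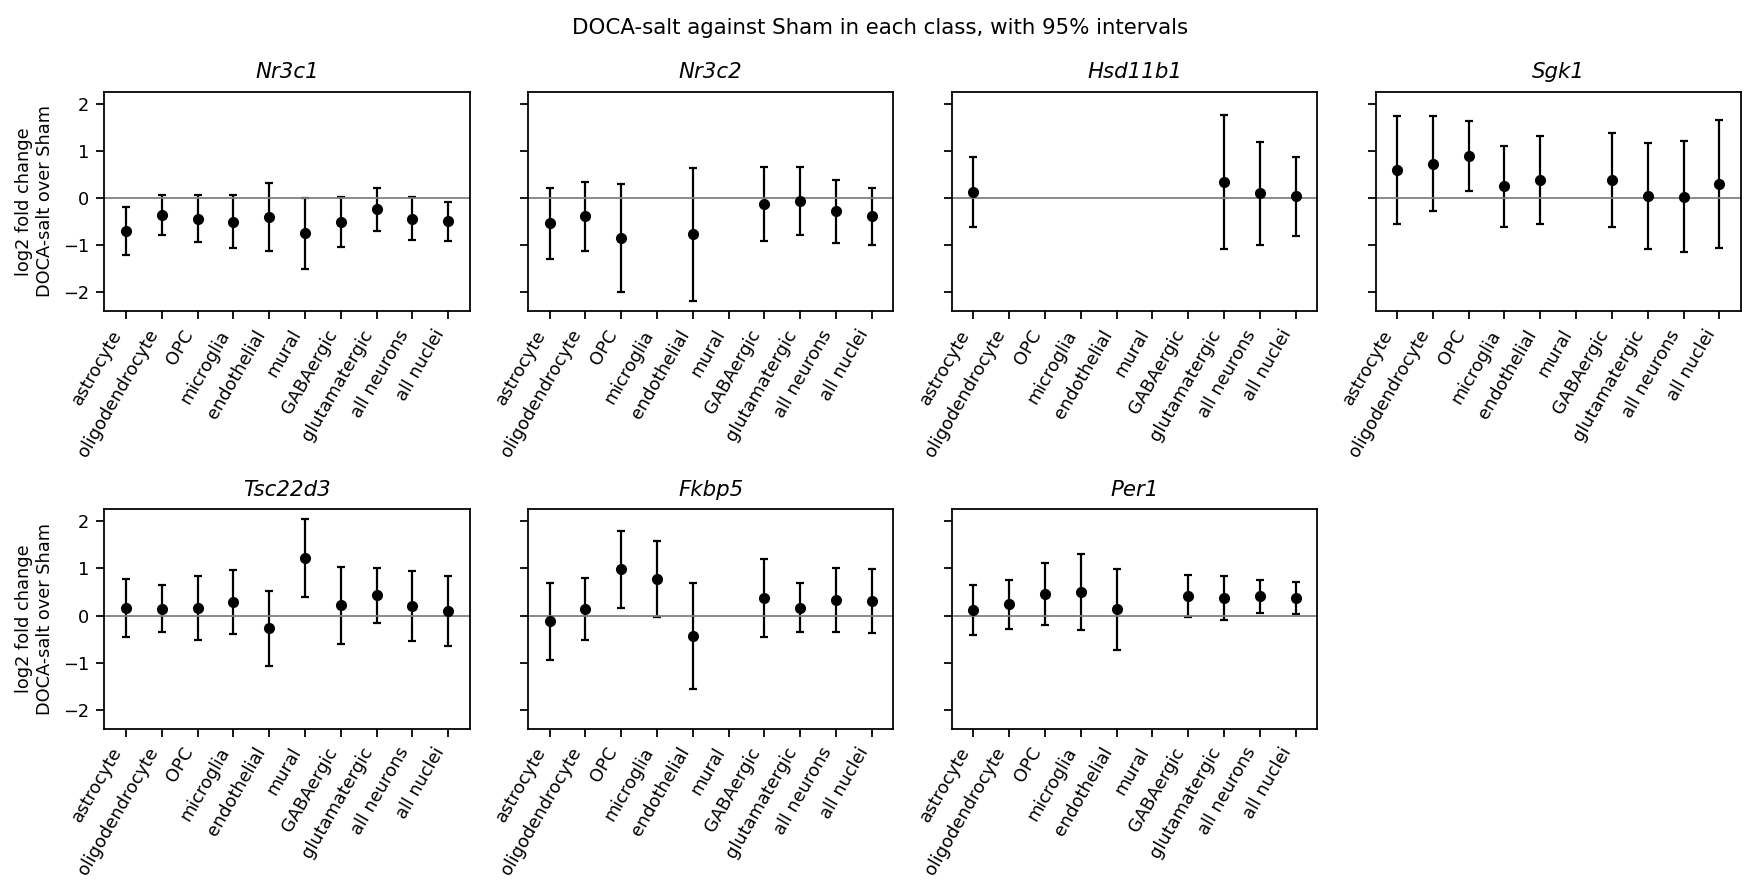
Log2 fold change of DOCA-salt over Sham for the 7 members tested, in 8 classes, all neurons and all nuclei. Points are edgeR estimates and bars 95% intervals without adjustment for the number of tests; a gap is a class where the gene did not pass the filter on low counts. *Nr3c1* lies between -0.75 and -0.24 in the 8 classes, and none of the values shown had an FDR under 0.05.

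The treatment effect was also compared between the glial and vascular classes and the neuronal classes in a single fit with the library as a block. No member passed (0 of 7, and 1 before adjustment), beside 1 of 12112 genes (0.00826%, and 4.62% before adjustment). The difference with the lowest p was that of *Nr3c2*, whose fitted change in glial and vascular classes was lower than in neurons by a log2 difference of -0.82 (SE 0.26, FDR 0.999 and unadjusted p = 0.00313 in edgeR). Each glial and vascular class had equal weight in it. Mural nuclei held 18 UMIs of *Nr3c2*, with means of 5.07 CPM in DOCA-salt and 49.2 CPM in Sham. The gene did not pass the filter in their treatment fit, and the part of mural nuclei in the difference was not tested. The difference for *Sgk1* was 0.37 (SE 0.26) and that for *Nr3c1* was -0.11 (SE 0.12).

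Other genes of the pathway were counted in 3 lists, and none of those genes passed the treatment test in any class or in whole libraries (0 called). Over the 8 classes and all neurons together, the median log2 fold change was -0.20 for 10 receptor chaperones and co-regulators, with 70 of 90 tests below 0, against 0.02 for all gene-by-class tests. For 22 genes known to be induced by corticosteroids it was -0.12, with 90 of 142 tests below 0, and for 6 genes of sodium channels and steroid handling -0.05. The induced genes took no single side. Their median was 0.07 in all neurons (12 above 0 and 10 below), -0.21 in oligodendrocytes (6 above and 13 below) and -0.05 in astrocytes (8 above and 11 below). These tests read the same genes in fits that share pools and nuclei, so they are not independent. The share of all tests below 0 was not taken. The lowest p in whole libraries was that of *Hsp90ab1*, a chaperone gene of both receptors (log2 fold change -0.79, SE 0.23, FDR 0.572). Of the 22 induced genes, 21 were tested between classes. In astrocytes 11 were called higher and 0 lower, where 13.1% of all genes were called higher, and in endothelial nuclei likewise 11 and 0, beside 5.97%. Mural nuclei had 7 called higher and 0 lower, beside 4.29% of all genes called higher. In each of the neuronal classes 16 were called lower and 0 higher, where 16.9% (GABAergic) and 19.8% (glutamatergic) of all genes were called lower. A class with a high level raises the mean that the other classes are set against. The lower calls in neurons are thus not separate from the higher calls elsewhere. The other classes were mixed or had few calls. Oligodendrocytes had 6 higher and 1 lower (9.06% and 5.99% of all genes), microglia 2 higher and 1 lower (4.71% and 1.5%), and OPCs 0 higher and 4 lower (4.19% of all genes lower).

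The pathway genes furthest above the other classes were then taken for each class. *Plin4*, which encodes a lipid droplet protein, was highest over the other classes in oligodendrocytes (log2 fold change 3.86, SE 0.22), with 61.3, 55.3, 37.6 and 8.66 CPM, and Sham 2 was the lowest library for it as it was for *Sgk1*. Its DOCA-salt effect was not called (log2 fold change 1.44, SE 0.45, FDR 0.319). *Srd5a1*, a steroid reductase gene, followed in that class (log2 fold change 1.52, SE 0.22), but with 12.6, 10.8, 17.97 and 20.1 CPM it was highest in Sham 2. In astrocytes *Angptl4*, an inhibitor of lipoprotein lipase (log2 fold change 2.44, SE 0.26), and *Sdc4*, a cell surface proteoglycan gene (log2 fold change 2.03, SE 0.08), led. *Angptl4* had 16.4, 32.5, 3.64 and 10.9 CPM, with no call between treatments (log2 fold change 1.495, SE 0.47, FDR 0.520). Endothelial nuclei were led by *Edn1*, the endothelin-1 gene (log2 fold change 5.03, SE 0.49), and *Txnip*, a thioredoxin-binding protein gene (log2 fold change 2.26, SE 0.23). Mural nuclei were led by *Edn1* (log2 fold change 4.90, SE 0.68) and *Cdkn1a*, a cell cycle inhibitor gene (log2 fold change 1.86, SE 0.33). The mural *Edn1* levels were 38.6, 16.2, 10.9 and 7.38 CPM in sums of 77735, 493308, 91759 and 270977 UMIs, so they rest on few UMIs. *Edn1* did not pass the filter on low counts in the mural treatment fit, and the part of endothelial RNA in its mural level was not tested. Microglia were led by *Txnip* (log2 fold change 1.98, SE 0.21) and *Cebpb*, a transcription factor gene (log2 fold change 0.74, SE 0.18). *Nedd4l*, a ubiquitin ligase gene whose product lowers epithelial sodium channels and is inhibited by the kinase of *Sgk1*, was higher in glutamatergic (log2 fold change 0.44, SE 0.08) and GABAergic neurons (log2 fold change 0.26, SE 0.07). *Hsp90aa1* in glutamatergic neurons (log2 fold change 0.28, SE 0.04) and *Stip1* in GABAergic neurons (log2 fold change 0.25, SE 0.06), both of the receptor chaperone machinery, were the other neuronal leaders, and no gene of the lists was called higher in OPCs.

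The genes whose levels ran most like each member over the 32 class-by-library sums were sought among 11016 genes by Pearson's r of log2(CPM + 1). For *Sgk1* they were *Ptgds* (r = 0.88), *Slc44a1* (r = 0.82) and *Tspan2* (r = 0.82), and for *Tsc22d3* they were *Gstm1* (r = 0.91), *Mt1* (r = 0.87) and *Glul* (r = 0.85), of which *Mt1* and *Glul* are in the list of induced genes. *Nr3c1* was most like *Gnai2* (r = 0.81), *Nr3c2* like *Zfp839* (r = 0.88), *Fkbp5* like *Cap1* (r = 0.73), *Per1* like *Rcc1l* (r = 0.82) and *Hsd11b1* like *Atl2* (r = 0.77). The 32 sums span the classes, so genes that are high in the same class run alike in them, and a shared response to corticosteroids was not tested. The sums of a library share its depth and free RNA and those of small classes hold few UMIs, so these values are a description.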

How the data were processed

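The authors aligned reads to mm10 with Cell Ranger 3.0.1 and deposited whole UMI counts per gene for barcodes called as nuclei. The study's filters were applied (over 200 genes, and under 7000 genes, 25000 UMIs and a mitochondrial share of 15%). They left 10307 and 18907 DOCA-salt nuclei and 2203 and 7759 Sham nuclei, with libraries holding 21255137 to 69382757 UMIs. The members and lists were chosen with earlier results of these data known.

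A nucleus was put in a glial or vascular class when its UMIs of that marker list came from 3 or more markers, were at least 3 times the rate of the library's own neurons (Poisson p under 1e-06) and at least 2 times the enrichment of any other list, and its neuronal markers were below the neuronal level. Neurons had 0.5 of that level or more and no enriched list. Markers were listed beforehand, but the form and limits of the gate were settled after looking at the data, with class sizes and member CPM in view, over at least 3 versions (1 missed astrocytes, and a tighter neuronal limit removed many Sham 1 glia). Of the nuclei classed, 190 astrocytes (9.25%) and 55 oligodendrocytes (2.22%) lay near the limit, and 8763 nuclei had no class. Doublets were not called. Nuclei whose top list was less than 2 times as enriched as another list were left out. A nucleus that was also enriched in a weaker list was kept in the class of its top list. Neuron subsets were gated by 3 or more UMIs of a transcript (Poisson p under 0.0001).

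Counts were summed per class and library and tested with edgeR 4.0.16 in R 4.3.3 (TMM, filterByExpr, quasi-likelihood, Benjamini-Hochberg over all genes tested), with the library as a block between classes and in the interaction. The intervals of CPM (Poisson) and shares (Clopper-Pearson, scipy 1.17.1) are at 95% and cover counting error only, and a count of 0 was taken to allow 3 counts. The edgeR steps were run on simulated counts with known changes. Those counts held no free RNA and no difference in make-up between libraries, so they do not test the steps under the spread of these data. Named beside the members are pathway genes called between treatments, for each class the 2 called pathway genes highest over the other classes, and for members with 100 UMIs or more the 3 genes most correlated with them, of which the first is given where the text names only 1. *Hsp90ab1* was named after its value was seen. Alternatives were RLE size factors, no filter, DESeq2 1.42.0, a replicate block, sums or nuclei thinned, no upper limits, a stricter gate (4 or more markers, a margin of 3) and leaving out each library. Same-numbered libraries were not paired by the labels.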

Additional observations from a re-analysis of the deposited data

How the results depend on the processing

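Within classes the count of members called between DOCA-salt and Sham was 0 and stayed at 0 with RLE, with no filter of low counts, with DESeq2, without upper limits, with thinned sums and with the stricter gate, under which mural nuclei were too few to test. In whole libraries it was 0 under every alternative run. Leaving out a library gave 0 to 7 calls within classes. The 7 came without DOCA-salt 1, when 7.39% of all gene-by-class tests were called: *Nr3c1* in astrocytes (-0.90), GABAergic (-0.78) and all neurons (-0.62), *Tsc22d3* in GABAergic (0.64) and glutamatergic neurons (0.75), and *Sgk1* in oligodendrocytes (0.97) and OPCs (1.03). Without DOCA-salt 2 it was 1, *Fkbp5* in GABAergic neurons (0.82), beside 2.23% of all tests, and without Sham 1 it was 1, *Sgk1* in oligodendrocytes (2.09), beside 0.15% of all tests. These fits assume that the lone library of a treatment varies like the libraries of the other. The only reversed value was that of *Sgk1* in oligodendrocytes without Sham 2 (-0.0081). The cause was not tested.

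With the replicate number as a block the count was 0 within classes and 0 in whole libraries. The deviations of same-numbered libraries had weak correlations, from -0.26 in GABAergic neurons to -0.01 in endothelial nuclei. None was positive, so the number was not taken as a pairing. The crossed pairing, chosen after seeing the data, gave 1 call within classes, *Sgk1* in oligodendrocytes (0.97, FDR 0.026 in edgeR), beside 0.752% of all tests, and 0 in whole libraries.

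Between classes the count of 17 calls was 13 to 17 over all alternatives and 13 to 15 when a library was left out, and of 136 recomputed values 16 kept their direction but were no longer called. The interaction count was 0 in every alternative run. Shares of nuclei with a UMI were recomputed after thinning for *Sgk1* in oligodendrocytes, *Tsc22d3* and *Hsd11b1* in astrocytes, and *Nr3c1* and *Per1* in all neurons. They were lower, but a nucleus kept in thinning can only lose a detected gene, so the fall itself is no measure of robustness. With 2 pools per treatment and few UMIs of *Nr3c2*, *Hsd11b1* and *Hsd11b2* in small classes, depth and n limit what could be detected.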
